A study of Homo sapiens with 12 samples.

Results

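PANC1 cells kept in the solvent DMSO were compared at 96 h and 12 h, with no drug in either culture, to show how far the control itself moved. The comparison was the log2 ratio, for each gene row of the array, of the signal in 0.05% DMSO at 96 h over the signal in 0.05% DMSO at 12 h. A row entered when it was above the detection limit in at least 1 of the 2 columns, which left 16474 of 34687 rows (47.5%). The rows are called genes below, and a positive log2 ratio means a higher signal at 96 h.

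PANC1 is an established line from a human pancreatic ductal carcinoma, and RNA of the whole culture was read on Illumina HumanHT-12 v4 BeadChips, which measure the brightness of labelled RNA on probe-coated beads. The study also treated PANC1 and HCT116, a human colon carcinoma line, with 10 uM ICG-001, which binds the co-activator CBP, or 10 uM C646, an inhibitor of the acetyltransferases p300 and CBP, for 12 or 96 h. The 2 DMSO groups used here were PANC1 in 0.05% DMSO for 12 h and PANC1 in 0.05% DMSO for 96 h. Each had 1 column of values, the authors' mean of 2 arrays, so no difference below has an error or a test, and only sizes are given.

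Per the study's methods, cells for the 12-h groups were grown to a higher confluency before DMSO was added than cells for the 96-h groups. Only the longer cultures were split during the treatment, and they had several changes of medium. Time, starting density, passage and the number of medium changes therefore cannot be told apart in this comparison.

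Cultured cells read the state of their medium through several transcription programmes. ATF4, a factor made when amino acids run short or protein folding is strained, turns on genes for making and importing amino acids and for charging tRNAs. Low oxygen stabilises HIF factors, which raise genes of glycolysis and vessel growth, and low sterol releases SREBP factors, which raise genes of cholesterol synthesis. Cells that slow their division lose transcripts of DNA replication and mitosis.

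The detection limit was a signal of 137.6 at 12 h and 138.1 at 96 h, and the median signals were 132.7 and 133.2. Across the 12 columns of the series the limit lay between 135.5 and 144.3. Of the genes compared, 14353 were above the limit in both DMSO columns. The genes just inside the limit were DZIP3, with signals of 137.6 and 136.8 at 12 and 96 h, and IVL, with 137.6 and 128.1. The genes just outside were HAPLN2, with 129.4 and 138.1, and CCDC54, with 133.5 and 138.1.

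The labelled cell type was checked against its markers. Of the epithelial and PANC1 markers, KRT19 had signals of 11325 and 11273 at 12 and 96 h, KRT8 had 7608 and 6010, and the mesenchymal filament gene VIM had 16339 and 18144. KRT18 had 284 and 323, and KRT7 had 157.8 and 159.8, close to the limit. None of 5 acinar, 4 endocrine and 4 endothelial markers was above the limit at either time. Of 5 leukocyte markers only CD14 was above it (148.5 and 166.9), with PTPRC under it, and of 6 fibroblast markers only COL1A1 (181 and 242) and COL3A1 (142.6 and 145.2) were. Of 7 colon markers CDX2 (206 and 217), CDH17 (139.8 and 138.2) and FABP1 (140.4 and 124.6) were above it at 1 or both times.

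Few genes differed between the times. At 1.5-fold, 217 of 16474 genes (1.32%) changed, 162 of them higher (0.983%) and 55 lower (0.334%) at 96 h, so that 74.7% of the changed genes were higher. At 2-fold, 27 genes (0.164%) were higher and 2 genes (0.0121%) lower. The median log2 ratio of all genes compared was 0.01, and the 5th and 95th percentiles were -0.29 and 0.35. Among the 18213 genes under the limit in both columns, which served as a view of the noise of dim probes, the log2 ratios had an SD of 0.0708, the largest size was 0.32, and 0 reached 1.5-fold. The limit and the background left in the signal keep the ratios of these genes small. Their values therefore do not show how often noise passes 1.5-fold among brighter genes, where the changed genes lie.

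The changed genes were brighter than the rest. Their median of the mean signal of both columns was 653, against 260 over all genes compared. When the genes compared were cut into 5 equal groups by mean signal, the dimmest group held 0 changed genes, the next 8 higher and 1 lower, the middle 37 and 6, the next 66 and 20, and the brightest 51 and 28. Background was left in the deposited signal, so ratios of dim genes understate their change, and after normexp background correction 501 genes were higher and 368 lower, with the share of higher genes at 57.7%. Just past the threshold stood MTA2, higher with signals of 787 and 1180, and LY6E, lower with 3577 and 2380. Just short of it were NR2F1 (322 and 483) and LOC652388 (700.1 and 468).

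**Figure D1:**
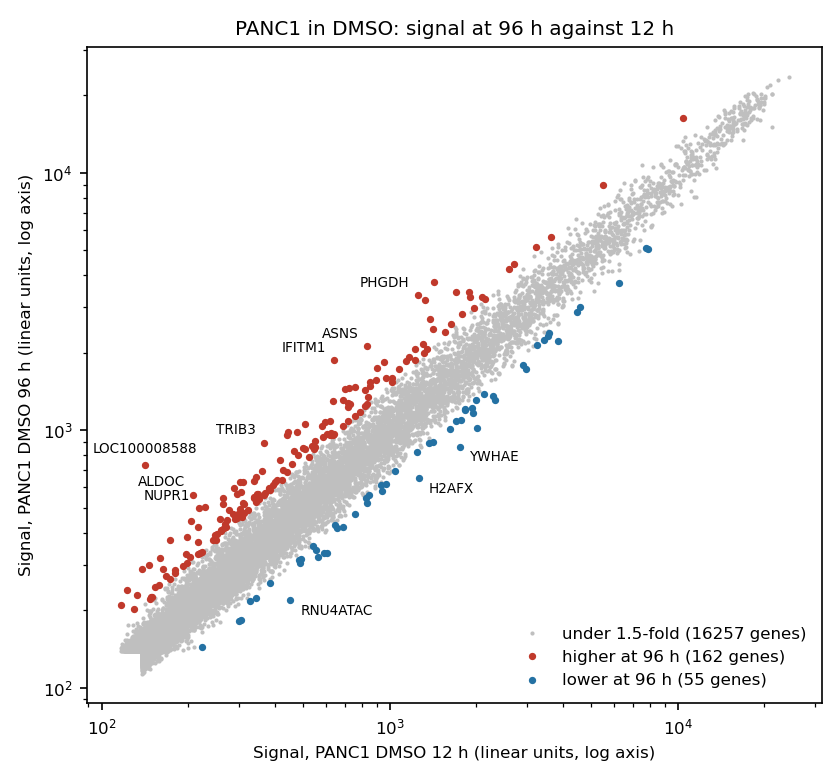
Signal of each of the 16474 genes compared, PANC1 DMSO 12 h on the horizontal axis and PANC1 DMSO 96 h on the vertical axis, both linear signal units on log axes. Red points are the 162 genes at least 1.5-fold higher at 96 h, blue points the 55 at least 1.5-fold lower, and grey points the rest. LOC100008588, the row of 18S ribosomal RNA, lies farthest from the diagonal.

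Genes of the ATF4 programme made up 8 of the 20 largest rises. Of 16 ATF4 regulators and early effectors compared, 7 rose, 0 fell and all 16 had a ratio above 0, with a median log2 ratio of 0.40. Of 12 amino acid synthesis genes 4 rose and 0 fell (median 0.30), and of 11 amino acid transporters 2 rose and 0 fell (median 0.28), with all 11 above 0. After normexp background correction these 3 medians were 0.72, 0.50 and 0.64. Among all genes compared 51.4% were above 0 and 0.983% rose. None of the 20 cytosolic aminoacyl-tRNA synthetases reached 1.5-fold, and their median was 0.17 with 16 above 0.

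The promoter letters of these genes are shown because ATF4 and its C/EBP partners bind a joint element, searched here as TGATGNAA on both strands in the window from 250 bases before to 50 bases after a start in RefSeq (GRCh38.p14). It was in 16 of the 47 genes of the 4 ATF4-related lists that had a promoter in the table (34%), against 256 of 9684 genes compared (2.64%) and 1217 of all 27305 genes in the table (4.46%). The lists were made of genes tied to ATF4 beforehand, so their share does not depend on how they changed here. Of the 113 genes with a promoter that rose, 5 held it (4.42%), and of the 34 that fell, 2 did (5.88%). Among the 5 that rose were ASNS, which is in the 4 lists, and GPX8 and CARHSP1, which are not. CARHSP1 was named after its values were seen. TGANTCA, the site of AP-1, was in 9.37% of all genes in the table, 6.62% of those compared and 6.19% of those that rose, and occurred together with the first element in 2 of the 47 genes. A match is a description of letters and not a bound site. The stretches below run 5′ to 3′ on the strand of the gene, with the element in capitals (in AARS as its reverse complement). ASNS rose, and CEBPG, SLC1A5 and AARS stayed under 1.5-fold. CEBPG and SLC1A5 were named after their values were seen.
ASNS, asparagine synthetase, chr7:97872449-97872496, minus strand, 68 bases before the start: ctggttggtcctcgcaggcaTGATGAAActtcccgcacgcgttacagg
CEBPG, a C/EBP factor that pairs with ATF4, chr19:33374051-33374098, plus strand, 42 bases before the start: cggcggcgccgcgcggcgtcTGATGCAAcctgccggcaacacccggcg
SLC1A5, a glutamine transporter, chr19:46784884-46784931, minus strand, 97 bases before the start: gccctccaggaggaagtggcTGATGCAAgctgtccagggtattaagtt
AARS, alanyl-tRNA synthetase, chr16:70289666-70289713, minus strand, 187 bases before the start: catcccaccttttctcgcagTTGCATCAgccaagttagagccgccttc

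ATF4 itself had a signal of 1416 in DMSO at 12 h and 2475 at 96 h, a log2 ratio of 0.81. In ICG-001 its signals were 3070 and 3570 at 12 and 96 h, and in C646 they were 1752 and 2769. The DMSO 12 h signal was thus the lowest of the 6 PANC1 columns. TRIB3, a pseudokinase that restrains ATF4 and AKT, rose from 366 to 895 in DMSO (log2 ratio 1.29), beside 2427 and 3832 in ICG-001 and 539 and 1259 in C646. DDIT4, an inhibitor of mTORC1 that responds to stress and low oxygen, rose from 1321 to 3197 (log2 ratio 1.28), beside 4112 and 6886 in ICG-001 and 1749 and 3415 in C646. For TRIB3 and DDIT4, too, DMSO at 12 h was the lowest of the 6 columns, and the ICG-001 columns lay above DMSO 96 h.

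GDF15, a secreted stress cytokine, rose from 1427 to 3780 in DMSO (log2 ratio 1.41), beside 4346 and 2485 in ICG-001 and 824 and 1893 in C646. Unlike TRIB3, it had its lowest value in C646 at 12 h. NUPR1, a small chromatin protein induced by stress, rose from 217 to 497 (2.29-fold), beside 860 and 1169 in ICG-001 and 206 and 334 in C646. A row under the name P8, an older name of NUPR1 that RefSeq did not match to 1 gene, rose from 158.9 to 318, and it was named here after its values were seen. STC2, a secreted glycoprotein induced by ATF4, rose from 440 to 956 (log2 ratio 1.12). CEBPB, the C/EBP factor that pairs with ATF4, was also named after its values were seen and rose from 1227 to 1873 (log2 ratio 0.61). DDIT3 (CHOP), the factor ATF4 raises under prolonged stress, had 570 and 675, a log2 ratio of 0.24 and under the threshold.

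Among the enzymes of amino acid synthesis, PHGDH, the entry step of serine synthesis, had 1252 in DMSO at 12 h and 3339 at 96 h (log2 ratio 1.41). Its signals were 4332 and 9935 in ICG-001 and 2209 and 4076 in C646, so DMSO at 12 h lay below the other 5 columns by at least 1.5-fold. PSAT1, the next enzyme of the same path, rose from 476 to 988 (log2 ratio 1.05), beside 1676 and 3348 in ICG-001 and 647 and 1065 in C646. ASNS, which makes asparagine and whose promoter letters are given above, rose from 836 to 2119 (log2 ratio 1.34), beside 3035 and 3846 in ICG-001 and 1246 and 2609 in C646. CBS, which turns homocysteine toward cysteine, rose from 895 to 1568 (log2 ratio 0.81). For all 4 enzymes DMSO at 12 h was the lowest column, and for none was DMSO at 96 h the highest.

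Of the transporters, SLC7A5, the large neutral amino acid carrier, rose from 1702 to 3454 (log2 ratio 1.02), beside 5225 and 6239 in ICG-001 and 4118 and 4732 in C646. SLC7A1, a carrier of arginine and lysine, rose from 841 to 1349 (log2 ratio 0.68). SLC3A2, the chain that SLC7A5 needs at the membrane, had 544 and 812, and SLC38A2, a glutamine and alanine carrier, had 3177 and 4737, both with a log2 ratio of 0.58 and just under the threshold. SLC38A2 was highest in DMSO at 96 h, where the drug columns reached 3925. Of the tRNA synthetases, the largest ratios were those of AARS (2908 and 4229, 0.54), SARS (0.40), CARS (0.38) and YARS (0.38).

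Over the 4 lists, DMSO at 12 h was the lowest of the 6 PANC1 columns for 9 of the 16 ATF4 regulators, 7 of the 12 synthesis enzymes, 5 of the 11 transporters and 6 of the 20 synthetases, against 21.9% of all genes compared. It was the highest for 0, 0, 0 and 3 of them, against 25.9% of all genes compared. A gene with a ratio above 0 cannot have DMSO at 12 h as its highest column, and is more likely to have it as its lowest. Since 16, 10, 11 and 16 of these genes had such a ratio, these counts are not separate from the ratios. DMSO at 96 h was the highest for 0, 0, 2 and 1, against 15.1% of all genes compared.

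**Figure D2:**
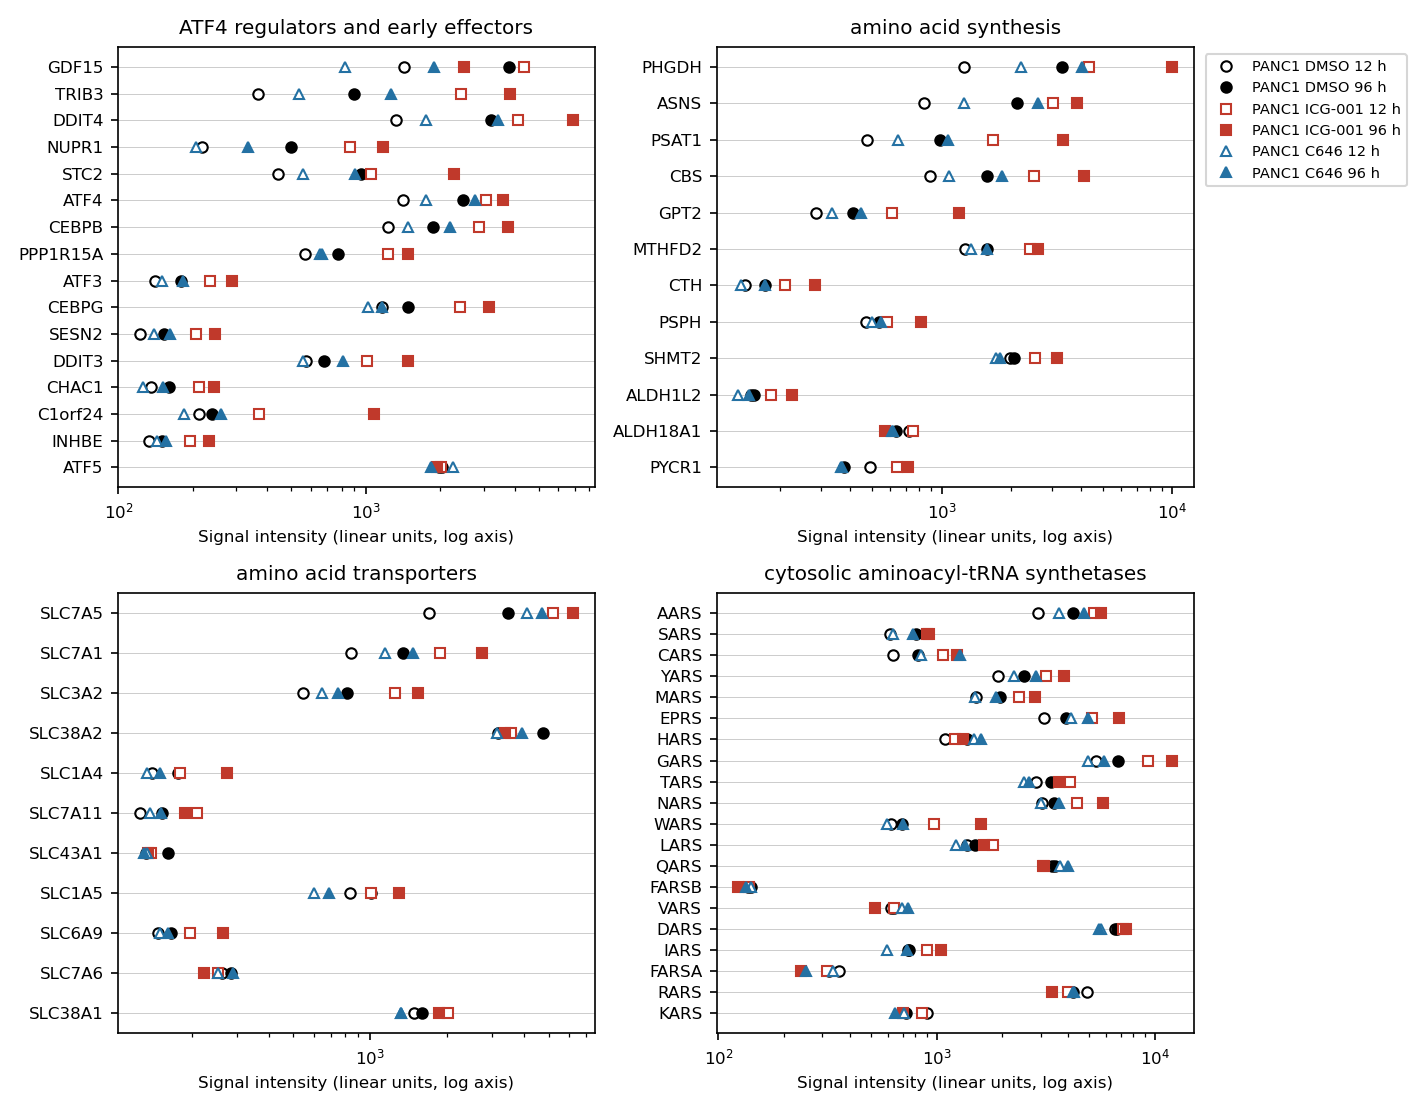
Signal of the genes of the 4 ATF4-related lists in the 6 PANC1 columns, linear units on a log axis, with genes ordered by their DMSO ratio. Black circles are DMSO (open 12 h, filled 96 h), red squares ICG-001 and blue triangles C646. For PHGDH, ASNS, TRIB3 and DDIT4 the open black circle lies at the left end, as for ASNS at 836, while for GDF15 and NUPR1 the open blue triangle does, at 824 and 206.

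Hypoxia and glucose genes held several large rises as well. Of 20 hypoxia targets compared, 3 rose, 0 fell and 18 were above 0, with a median log2 ratio of 0.29. ALDOC, an aldolase of glycolysis, rose from 208 to 561 (log2 ratio 1.43), beside 233 and 197 in ICG-001 and 297 and 424 in C646. PFKFB4, which sets the level of the glycolysis activator fructose 2,6-bisphosphate, rose from 229 to 504 (log2 ratio 1.14), beside 208 and 202 in ICG-001 and 299 and 484 in C646. In both genes DMSO at 96 h was the highest of the 6 columns, and DMSO at 12 h lay inside the range of the drug columns.

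ANGPTL4, a secreted inhibitor of lipoprotein lipase, rose from 697 to 1446 (log2 ratio 1.05), beside 1110 and 660 in ICG-001 and 1106 and 1406 in C646. NDRG1, a stress gene raised by low oxygen, rose from 180 to 286 (log2 ratio 0.67), and BHLHB2 (BHLHE40), a repressor that low oxygen also raises, had 1019 and 1465, a log2 ratio of 0.52. DMSO at 96 h was the highest of the 6 columns for 11 of the 20 hypoxia targets, against 15.1% of all genes compared. A ratio above 0 favours that position, so the count is not separate from the ratios. Among 18 glycolysis genes, ALDOC rose, the row PKM2 (pyruvate kinase PKM) fell from 2983 to 1732 (log2 ratio -0.78), and the median was 0.09. SLC16A3, the lactate exporter, had 7812 and 9487, and PFKM had 458 and 555, each with a log2 ratio of 0.28. ACGTG, the core of the HIF element, was in 10 of 15 hypoxia targets with a promoter in the table (66.7%), against 32.3% of genes compared, 30.1% of those that rose and 24.9% of all genes. The list was made of hypoxia targets beforehand, so its share does not depend on how they changed here.

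IFITM1, a membrane protein that blocks virus entry, had the largest rise of any protein-coding gene, from 643 to 1868 (2.91-fold). Its drug columns were 634 and 483 in ICG-001 and 627 and 948 in C646, so DMSO at 96 h stood apart from all 5 other columns and DMSO at 12 h did not. IRF1, a transcription factor induced by interferon, rose from 217 to 422 (log2 ratio 0.96), and there DMSO at 12 h was the column apart, beside 736 and 1363 in ICG-001 and 473 and 613 in C646. These were the only 2 of 29 interferon-stimulated genes to change. The median of the list was 0.00, 14 genes were above 0, IFI6 had 549 and 786 (0.52) and HLA-B had 584 and 424 (-0.46).

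The largest ratio of all belonged to ribosomal RNA, which makes up most cellular RNA and has no poly(A) tail. LOC100008588, a row that RefSeq gives as 18S ribosomal RNA (RNA18SN5), had 141 in DMSO at 12 h and 732 at 96 h (log2 ratio 2.37). Its other PANC1 signals were 1340 and 1257 in ICG-001 and 1109 and 1702 in C646, so all 5 other columns were well above DMSO at 12 h, where the signal was near the limit. The list of ribosomal RNA rows held this row, LOC100008589 (28S ribosomal RNA by RefSeq, log2 ratio 0.37, named after its values were seen) and 5 rows that RefSeq did not match, whose identity as ribosomal RNA was not checked here. Of these 7, 3 rose and 0 fell, with a median of 0.51, or 0.36 with the 3 rows under the limit in 1 column at their lower bound, and DMSO at 12 h was the lowest column for 6. LOC100133565 was under the limit at 12 h and rose at least 1.52-fold, to 209, and LOC100132394 rose from 146.7 to 221.6. LOC100132564 had 123 and 174.6, at least 1.27-fold higher and under the threshold. RN5S9, a 5S ribosomal RNA outside the list that was named after its values were seen, fell from 654 to 418. How far the share of ribosomal RNA in the labelled samples differed between arrays was not tested.

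Small nuclear and nucleolar RNAs, short RNAs of splicing and of ribosomal RNA processing, moved in both directions. Of 38 rows compared 6 rose and 1 fell, with a median of 0.05. RNU1A3, a gene of the U1 spliceosomal RNA, rose from 173 to 376 (log2 ratio 1.12), beside 439 and 529 in ICG-001 and 511 and 580 in C646. RNU1-5, another U1 row, rose from 138.5 to 290 (log2 ratio 1.07). The 6 that rose include RNU1A3, RNU1-5 and RNU1-3, and RNU1-3 was named after its values were seen. These U1 rows have nearly the same sequence, so they are not separate readings. SNORD3D (U3, which acts in ribosomal RNA processing) rose from 204.9 to 446 (log2 ratio 1.12), beside 276 and 763 in ICG-001 and 590 and 813 in C646. The U3 rows SNORD3A and SNORD3C, named after their values were seen, had log2 ratios of 0.48 and 0.20, under the threshold. The rise of SNORD3D was thus not matched in size by these rows. RNU4ATAC, the U4 RNA of the minor spliceosome, had the largest fall of any gene, from 450 to 218 (log2 ratio -1.04), beside 342 and 141 in ICG-001 and 191 and 170 in C646. By RefSeq type, 4 of 12 small nuclear RNAs compared rose and 1 fell, 3 of 150 small nucleolar RNAs rose, and 0 of 64 microRNA rows changed, against 136 higher and 40 lower of 11674 protein-coding genes. The row MIR1974 had no RefSeq type and is not among the 64 microRNA rows. It rose from 1379 to 2705 and was named after its values were seen. The 4 small nuclear RNAs that rose were all U1 rows (RNU1A3, RNU1-3, RNU1F1 and RNU1G2), so they are not 4 separate readings.

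The other rises among the 20 largest were those of MEG3, SCNN1A, ULBP1 and LOC388588. MEG3, a long noncoding RNA of an imprinted locus, rose from 442 to 986 (log2 ratio 1.16), beside 1476 and 1170 in ICG-001 and 1579 and 1444 in C646, with DMSO at 12 h apart from the other 5 columns. SCNN1A, a subunit of the epithelial sodium channel, rose from 303 to 630 (log2 ratio 1.06), beside 298 and 242 in ICG-001 and 495 and 787 in C646. ULBP1, a stress ligand of the NKG2D receptor, rose from 146 to 301 (log2 ratio 1.05), beside 371 and 409 in ICG-001 and 171 and 265 in C646. LOC388588 (SMIM1), a small membrane protein, rose from 509 to 1053 (log2 ratio 1.05). The drug columns thus lay on both sides of the DMSO values, with SCNN1A in ICG-001 below DMSO 12 h and MEG3 above DMSO 96 h in all 4.

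**Figure D3:**
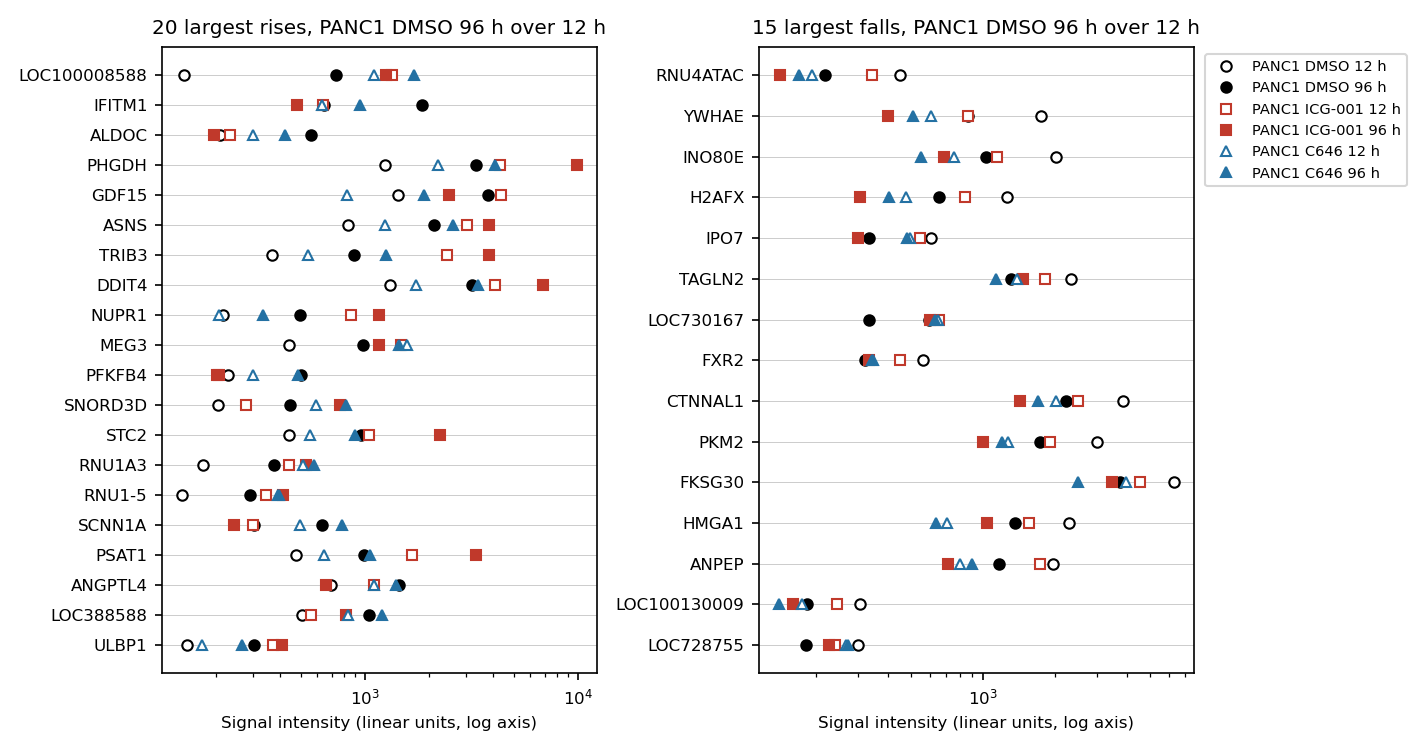
Signal in the 6 PANC1 columns, linear units on log axes, for the 20 largest rises (left) and the 15 largest falls (right) between PANC1 DMSO 12 h (open black circle) and PANC1 DMSO 96 h (filled black circle). Red squares are ICG-001 and blue triangles C646, open at 12 h and filled at 96 h. For LOC100008588 the DMSO 12 h value of 141 lies left of all others, and for IFITM1 the DMSO 96 h value of 1868 lies right of all others.

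Most transcripts of the S phase and G2/M lists were slightly lower at 96 h, with few past the threshold. Of 42 S phase genes compared 0 changed, 38 were below 0 and the median log2 ratio was -0.16. RRM2, which makes deoxynucleotides for replication, had 1554 and 1097 (-0.50), and CCNE2, a cyclin of S phase entry, had 389 and 281 (-0.47). Of 54 G2/M genes 2 fell and 0 rose, 44 were below 0 and the median was -0.15. RANGAP1, the activator of the Ran GTPase, was one of those above 0, with 1694 and 2413 (0.51). TPX2, a spindle assembly factor, fell from 4471 to 2877 (log2 ratio -0.64), beside 3327 and 1602 in ICG-001 and 2320 and 2001 in C646. ANLN, a scaffold of the dividing furrow, fell from 4585 to 3021 (log2 ratio -0.60), beside 3372 and 1963 in ICG-001 and 2812 and 2469 in C646. DMSO at 12 h was the highest of the 6 PANC1 columns for 28 of 42 S phase and 30 of 54 G2/M genes, against 25.9% of all genes compared. A ratio below 0 favours that position, so these counts are not separate from the ratios. In RNA of a whole culture, fewer cycling cells and less of each transcript per cell cannot be told apart.

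Among the brakes of the cell cycle 1 gene changed. CDKN1A (p21), an inhibitor of cyclin-dependent kinases, rose from 551 to 857 (log2 ratio 0.64), beside 651 and 928 in ICG-001 and 1006 and 1007 in C646. The other 11 of 12 CDK inhibitors and related genes did not change by 1.5-fold, with CCNG2 at 146.7 and 198.3 and CDKN1B at 484 and 632. Of 17 p53 targets GDF15 and CDKN1A rose, both of which also respond to other stresses, and the median was 0.06. Of 27 rows of replication-dependent histones HIST1H2BD (H2BC5) rose from 552 to 912 (log2 ratio 0.72), with a median of 0.12. In this list 23 rows were above 0 and 4 below, the other direction from most S phase and G2/M genes.

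The largest falls came from varied functions. YWHAE, a 14-3-3 adaptor protein, fell from 1751 to 862 (log2 ratio -1.02), beside 867 and 400 in ICG-001 and 607 and 509 in C646, so DMSO at 12 h stood above all 5 other columns. INO80E, a subunit of the INO80 chromatin remodeller, fell from 2009 to 1024 (log2 ratio -0.97), beside 1142 and 687 in ICG-001 and 754 and 552 in C646. H2AFX, the histone variant H2A.X of the DNA damage response, fell from 1260 to 652 (log2 ratio -0.95), beside 840 and 306 in ICG-001 and 474 and 402 in C646. In these 3 genes every column with a drug was also below DMSO at 12 h by at least 1.5-fold.

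HMGA1, a protein that shapes chromatin, fell from 2279 to 1361 (log2 ratio -0.74), and the row LOC100130009, its pseudogene HMGA1P8, fell from 305 to 183 by the same log2 ratio. The 2 share sequence, so their signals cannot be taken as separate readings. CTNNAL1, a relative of alpha-catenin, fell from 3843 to 2221 (log2 ratio -0.79), and TAGLN2, an actin-binding protein, fell from 2322 to 1306 (-0.83). IPO7, a nuclear import receptor, fell from 603 to 333 (-0.86), FXR2, an RNA-binding relative of FMR1, from 562 to 321 (-0.81), and ANPEP, a membrane aminopeptidase, from 1954 to 1167 (-0.74). The rest of the 15 largest falls were FKSG30, LOC728755 (MIR3171HG) and LOC730167, with log2 ratios of -0.75, -0.73 and -0.83. LOC730167 was the only gene for which DMSO at 96 h stood at least 1.5-fold below every other PANC1 column, with 333 beside 592 to 654. Pseudogenes made up 6 of the 55 falls and 1 of the 162 rises. Of 1091 pseudogene rows compared, 0.55% fell and 0.0917% rose, against 0.334% and 0.983% of all genes compared. Whether the other pseudogene rows read the transcript of a parent gene was not tested.

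Lipid genes rose in a few places. Of 21 cholesterol synthesis genes 1 rose and 15 were above 0, with a median of 0.14. TM7SF2, a sterol reductase, rose from 414 to 763 (log2 ratio 0.88), beside 409 and 703 in ICG-001 and 501 and 945 in C646. MSMO1 (row SC4MOL) had 711 and 987, a log2 ratio of 0.47. Of 14 other SREBP targets ABCA1, a cholesterol exporter, rose from 250 to 375 (log2 ratio 0.59), and SCD, the stearoyl-CoA desaturase, had 7494 and 10713 (0.52). The median of that list was 0.21. ABCA1 is known to be raised by the LXR receptors rather than by SREBP itself.

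In other stress programmes HSPA1A, HSPA1B and MT1F rose and DNAJB1 fell. Of 17 heat shock chaperones, HSPA1A and HSPA1B, the inducible HSP70 genes, rose from 1892 to 3433 and from 1906 to 3285, and DNAJB1, their co-chaperone, fell from 1771 to 1092 (log2 ratio -0.70). HSPA1A and HSPA1B are near-identical copies, so signal may be shared between them, which was not tested. In HCT116 DMSO the 2 rows differed, with HSPA1A at 134.9 and 126.3 and HSPA1B at 5665 and 4767 at 12 and 96 h. The median of the list was -0.07. Of 20 genes of the endoplasmic reticulum 0 changed, with HSP90B1 at 0.56 and CALR at -0.51 as log2 ratios. Of 7 metallothioneins, which bind zinc and copper, MT1F rose from 220.2 to 334 (log2 ratio 0.60) while the other 6 were below 0, MT2A among them with 21179 and 15036 (-0.49), and the median was -0.41, or -0.13 with no filter on dim genes. Of 16 NRF2 targets 0 changed, with HMOX1 at 477 and 623.

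Among targets of signalling paths ZFP36, IER3 and ID2 rose. Of 24 immediate early genes 2 rose, ZFP36, which destabilises cytokine transcripts, from 2707 to 4428 and IER3, a survival gene, from 2099 to 3286, with a median of 0.19. JUN had 1034 and 1460 (0.50), FOS had 131 and 168.5, under the limit at 12 h, and EGR1 had 194 and 283. Of 12 genes of ERK feedback IER3 alone rose, with DUSP6 at 394 and 485. Of 20 TGF-beta targets and of 18 WNT targets ID2, an inhibitor of differentiation factors that is in both lists, alone rose, from 510 to 844 (log2 ratio 0.73). MYC had 1045 and 1272, a log2 ratio of 0.28. Part of the WNT list came from the study's own model. Of 17 matrix and mesenchymal genes SPARC, a collagen-binding matrix protein, rose from 584 to 1041 (log2 ratio 0.83), beside 599 and 425 in ICG-001 and 631 and 1322 in C646, with CDH2 at 1548 and 2185. Of 27 lysosome and autophagy genes ATP6AP1, a subunit of the proton pump, rose from 3620 to 5631.

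The other lists with 0 changed genes were the 22 YAP and TEAD targets (-0.05), the 17 keratins and epithelial junction genes (0.03), the 8 mucins and secretory genes (0.03), the 17 NF-kB chemokines and feedback genes (0.05), the 73 cytosolic ribosomal proteins (0.00), the 73 genes of oxidative phosphorylation (0.00) and the 9 insulin-like growth factor and binding protein genes (-0.03). Among their largest ratios were those of SOD2, with 892 and 597 (-0.58), RPS26, with 5130 and 3483 (-0.56), and ANKRD1, with 162 and 219 (0.43). The members of the transcription complex that the drugs act on did not change by 1.5-fold. CREBBP had 548 and 599, EP300 had 362 and 319, CTNNB1 had 223 and 224, and TCF7L2 had 245 and 215.

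The 6 PANC1 columns placed side by side show which DMSO column stood apart. Over 19221 genes above the limit in at least 1 of them, DMSO at 12 h was at least 1.5-fold above all 5 others for 9 genes and below all 5 for 41. DMSO at 96 h was above for 2 (IFITM1 and HINT3) and below for 1. The counts above and below were 2 and 0 for ICG-001 at 12 h, 179 and 88 for ICG-001 at 96 h, 0 and 1 for C646 at 12 h, and 5 and 5 for C646 at 96 h. HINT3 (344 and 527), a nucleotide hydrolase, was named after its values were seen.

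**Figure D4:**
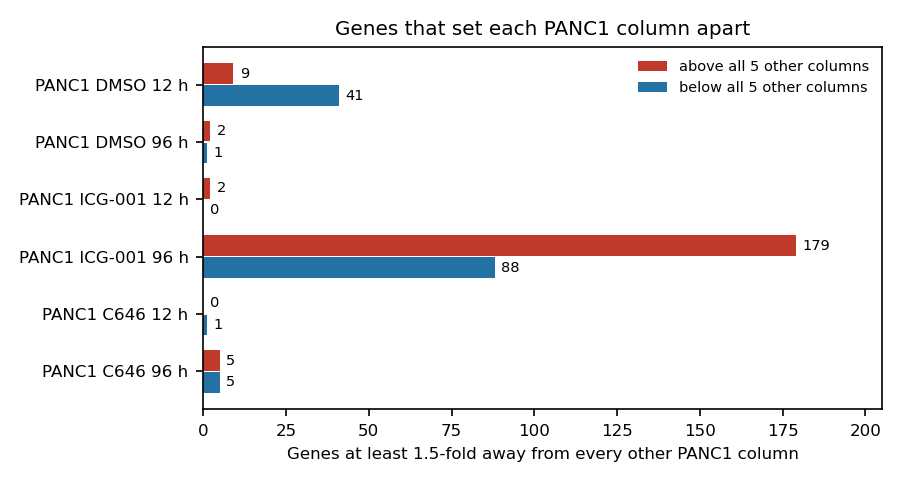
For each PANC1 column, the number of genes whose signal was at least 1.5-fold above (red) or below (blue) all 5 other PANC1 columns, out of 19221 genes. DMSO 12 h has 9 and 41, DMSO 96 h has 2 and 1, and ICG-001 96 h has 179 and 88.

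The position of the changed genes can be read gene by gene against the 4 drug columns. Of the 162 genes that rose, DMSO at 12 h lay below all 4 drug columns for 130, and DMSO at 96 h lay above all 4 for 27. Both held for 11 of these and neither for 16. Of the 55 genes that fell, DMSO at 12 h lay above all 4 for 47 and DMSO at 96 h below all 4 for 12, with both for 5 and neither for 1. On the log2 scale the drug columns at 12 h were nearer to DMSO at 96 h than to DMSO at 12 h for 97 (ICG-001) and 117 (C646) of the genes that rose, and for 29 and 46 of those that fell. At 96 h they were nearer to DMSO at 96 h for 132 and 152 of the genes that rose and for 45 and 49 of those that fell. These counts describe where values lie. The genes were chosen by the ratio between DMSO at 12 h and DMSO at 96 h. That choice favours an extreme value in either column, so the counts, those of nearness included, are not separate from the ratios. The same counts are not given here for all genes compared, so no share expected without the choice is known. The drug columns were treated, and how much of each position came from a drug and how much from DMSO at 12 h was not tested.

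The same contrast was read in 3 other pairs of columns that share none with PANC1 DMSO. In ICG-001, PANC1 had 393 genes higher at 96 h (2.24%) and 309 lower (1.76%). In C646 it had 70 (0.404%) and 14 (0.0808%), and HCT116 in DMSO had 259 (1.57%) and 260 (1.58%). Across genes, the log2 ratios of PANC1 DMSO had a Pearson r of 0.36 and a Spearman rho of 0.33 with those of ICG-001 (15652 genes), 0.43 and 0.38 with those of C646 (15413 genes) and 0.27 and 0.26 with those of HCT116 DMSO (14477 genes). Genes are not independent replicates, and the columns share the array design and, within PANC1, the normalization.

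Of the 162 genes that rose in PANC1 DMSO, 48 also rose in ICG-001 (29.6% of these and 12.2% of those in ICG-001), 27 in C646 (16.7% and 38.6%) and 17 in HCT116 DMSO (10.5% and 6.56%), where 152 of the 162 could be compared. Of the 55 that fell, 21 also fell in ICG-001 (38.2% and 6.80%), 3 in C646 (5.45% and 21.4%) and 3 in HCT116 DMSO (5.45% and 1.15%). The median ratio of the genes that rose was 0.36 in ICG-001, 0.29 in C646 and 0.16 in HCT116 DMSO, and that of the genes that fell was -0.44, -0.15 and -0.09. DDIT4 and LOC100132394 rose in all 4 comparisons, and 0 genes fell in all 4.

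The lists differed in how far their ratios carried over. The ATF4 regulators had medians of 0.40 in PANC1 DMSO, 0.30 in ICG-001 and 0.51 in C646, but -0.10 in HCT116 DMSO, where 1 rose and 2 fell. Amino acid synthesis had 0.30, 0.39, 0.28 and -0.32 in the same order, and the transporters had 0.28, 0.26, 0.19 and -0.22. Hypoxia targets had 0.29, -0.04, 0.16 and 0.61, with 13 of 23 higher in HCT116 DMSO. S phase genes had -0.16, -0.16, -0.08 and -0.75, with 31 of 42 lower in HCT116 DMSO. Ribosomal RNA rows had 0.51, 1.51, 0.67 and 0.11. With 1 column per group, no difference between these comparisons was tested.

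**Figure D5:**
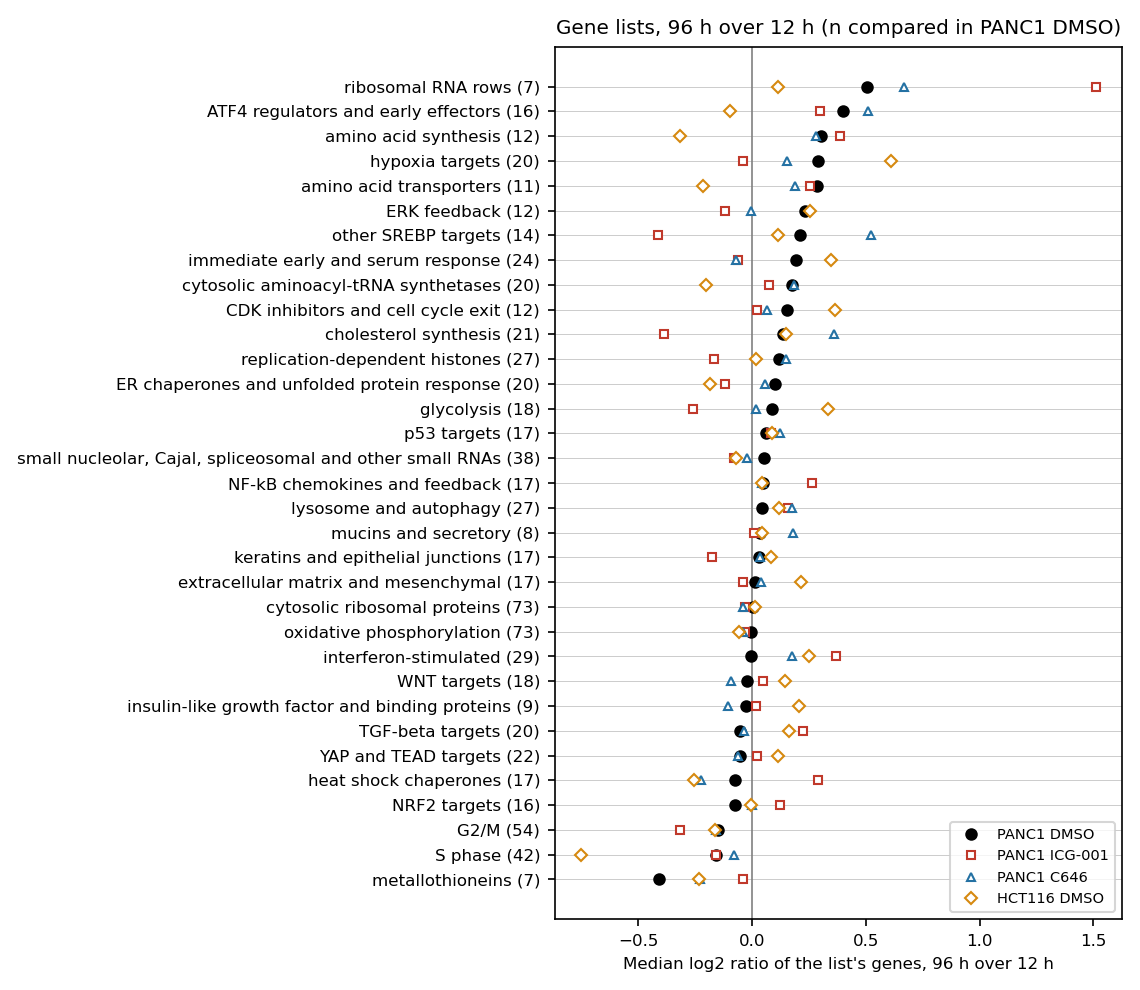
Median log2 ratio of 96 h over 12 h for each gene list (number of genes compared in PANC1 DMSO in brackets). Black circles are PANC1 DMSO, red squares PANC1 ICG-001, blue triangles PANC1 C646 and orange diamonds HCT116 DMSO, and the grey line marks 0. In PANC1 DMSO the medians run from -0.41 for metallothioneins to 0.51 for ribosomal RNA rows.

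Where the array had more than 1 row for a gene, the rows gave a check within the same 2 columns. For 264 genes read by more than 1 row, the range of their log2 ratios had a median of 0.15 and a 95th percentile of 0.44. Of 8 such genes with a changed row, RNU1-4 had both rows changed (RNU1F1 at a log2 ratio of 0.59, and RNU1G2 at least 1.75-fold higher, since it was under the limit at 12 h). In the other 7 only 1 row passed. GPX8, a peroxidase of the endoplasmic reticulum, had rows at 0.72 and 0.48, and VOPP1 had -0.71 and -0.49. The rows lay farther apart for GOLIM4 (0.72 and 0.26) and RNFT2 (0.61 and 0.25). For WASHC1 (0.71 and 0.03) and CCDC125 (0.60 and 0.03) the second row was close to 0. INF2, a formin that acts on actin, had its rows on opposite sides, C14orf173 at 0.80 and INF2 at -0.25, so no direction is given for it. These genes were named after their values were seen.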

How the data were processed

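Illumina HumanHT-12 v4 arrays of PANC1 and HCT116 cells were used. Deposited are linear signal intensity values, each for a gene name. The authors quantile-normalized them in GenomeStudio (a tool the submitters' processing notes name), left the background in, and averaged replicate arrays, 2 per column and 3 for PANC1 ICG-001 12 h. Values of single arrays were not used here, so there is no spread and no test, and the number of arrays limits the precision. The genome build behind the array was not given in the sources used here.

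Signals were turned into log2 and subtracted. Each column had a detection limit, set 2.33 SD above the peak of the density of log2 signals, where the SD came from the values under that peak. Genes above it in at least 1 column were compared and counted as changed at 1.5-fold. Where a changed gene did not exceed the limit in 1 column, its fold is a lower bound, the brighter signal divided by the limit. Of 34687 rows, 17755 matched a current RefSeq symbol (GRCh38.p14), 3317 an older one, 2669 a gene identifier, 132 several genes and 10814 none. Motifs were searched in RefSeq promoter sequences.

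The members and gene lists were chosen with earlier results of these data known. S phase and G2/M lists are those of Seurat. Named were the 20 largest rises, the 15 largest falls, the 4 largest ratios of each list, and NUPR1, ATF4, DDIT3, CDKN1A, MYC, JUN, FOS, CREBBP, EP300, CTNNB1, TCF7L2 and VIM. Other genes are said to be named after their values were seen, apart from cell type markers and genes at a limit or threshold. Not every gene named by the rule is printed, and those left out stand in the counts of their lists.

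Alternatives were folds of 1.2 and 2, no filter, a limit at 5 SD, genes above the limit in both columns, normexp with an offset of 16 and quantile normalization, ratios centred on their median, and quantile normalization over 12 columns. The tools were R 4.3.3 with limma 3.58.1, and Python 3.11.15 with matplotlib 3.10.9, scipy 1.17.1, pandas 2.3.3 and numpy 2.4.6. The procedure was tested on simulated data.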

Additional observations from a re-analysis of the deposited data

Results flagged for a closer look

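Genes that moved at least 1.5-fold in PANC1 DMSO between 12 and 96 h and at least 1.5-fold the other way in another 96 h over 12 h comparison are listed here as log2 ratios. With 1 column per group, none of these differences was tested, and genes outside the naming rule were named after their values were seen.

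In HCT116 DMSO, TRIB3 was -0.88 (1.29 in PANC1 DMSO), SLC7A5 -0.83 (1.02), PSAT1 -0.61 (1.05), TEAD2, a factor of the Hippo pathway, -0.67 (0.59), and LOC644422 -0.67 (0.65). TRIB3, SLC7A5 and PSAT1 are 3 of the ATF4-related genes described above. In PANC1 C646, ID2 was -1.01 (0.73) and MIR1974 was -0.86 (0.97).

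In PANC1 ICG-001, GDF15 was -0.81 (1.41), ANGPTL4 -0.75 (1.05), IER3 -0.75 (0.65), SNORA12 -0.73 (1.04) and MIR1974 -0.95 (0.97). SRGN, a proteoglycan core protein of secretory granules, was 1.29 there (-0.63 in PANC1 DMSO), and RNY4, a small noncoding RNA, was 0.59 (-0.60).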

How the results depend on the processing

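The count of 217 changed genes (162 higher and 55 lower) became 869 (501 and 368) after normexp with an offset of 16, 2535 (1489 and 1046) at 1.2-fold and 29 (27 and 2) at 2-fold. The share of higher genes among the changed, 74.7%, became 57.7%, 58.7% and 93.1%. All 162 and 55 were among the genes called after normexp. Quantile normalization over 12 columns gave 139 higher and 68 lower (67.1% higher), with 134 of the 162 and all 55 among them, and centring gave 154 and 57. No filter and a limit at 5 SD left 162 and 55, and genes above the limit in both columns left 158 and 55. Taking the filter off could not add a changed gene. The genes it added had log2 ratios of at most 0.32 in size. No named gene past 1.5-fold changed sign. Values close to 0 did: CTNNB1, at 0.00, was -0.05 after normexp, -0.03 over 12 columns and below 0 by less than 0.01 after centring, the median of the mucins and secretory genes went from 0.03 to -0.01 with no filter, and that of the cytosolic ribosomal proteins was on either side of 0.00 after centring. In what follows, a log2 value counts as grown or shrunk only when it shifted by more than 0.0708, the SD of genes under the limit in both columns. Ratios of 75 of 155 named genes grew after normexp, as did the medians of 7 lists: ATF4 regulators from 0.40 to 0.72, amino acid synthesis from 0.30 to 0.50, amino acid transporters from 0.28 to 0.64, hypoxia targets from 0.29 to 0.39, CDK inhibitors from 0.15 to 0.31, histones from 0.12 to 0.27 and ribosomal RNA rows from 0.51 to 1.19. With no filter 4 medians shrank, metallothioneins from -0.41 to -0.13, histones to 0.05, hypoxia targets to 0.20 and ERK feedback from 0.23 to 0.16. With the limit at 5 SD 4 grew, histones to 0.20, ATF4 regulators to 0.53, mucins and secretory genes to 0.28 and small RNAs from 0.05 to 0.13, and above the limit in both columns ATF4 regulators had 0.61. No paired analysis was possible because each group has 1 column and no replicate columns. Dim genes limit the comparison, since background left in the signal shrinks their ratios, and the spread between arrays was not used here.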
